A study of Mus musculus with 4 samples.

Results

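Granule protein genes of eosinophils and neutrophils are described here through Prg3, Prg2 and Mpo, and through the H3K9me3 regions listed at them and within 500 kb of them. Regions were taken as belonging to a gene where that gene had the nearest transcription start or was named as holding the region. By this rule 2 of the 5432 regions in the authors' lists belonged to the 3 genes, 1 at Prg3 and 1 at Mpo, and none belonged to Prg2. A further 6 regions, all near Mpo, lay within 500 kb. The genes were named before the counts given here. Prg3 and Prg2 came from knowledge of the study and Mpo from earlier results of these data. The choice was therefore not independent of the lists, and the values at these genes describe them only.

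Eosinophils and neutrophils are granulocytes, white blood cells that store toxic proteins in granules and release them on activation. Prg2 encodes the major basic protein that forms the crystalline core of eosinophil granules, and Prg3, its neighbour and paralogue, encodes a related granule protein. Mpo encodes myeloperoxidase, a haem enzyme of the primary granules of neutrophils that makes hypochlorous acid. H3K9me3, trimethylation of lysine 9 on histone H3, marks silent chromatin.

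The material was microglia, the macrophages of the brain, sorted from the embryonic telencephalon of C57BL/6 mice. Their age is given as E14 in the sample labels and E14.5 in the protocol text. Control cells came from Arid1afl/fl embryos (titled WT), whose Arid1a alleles are floxed, and KO cells from Arid1acKO-Cx3cr1 embryos, a conditional knockout of Arid1a that, as its name reads, was driven by Cx3cr1. Cx3cr1 is expressed in microglia and some other myeloid cells, and deletion is limited to cells that made the recombinase and their descendants. Arid1a encodes a subunit of SWI/SNF, which remodels chromatin. CUT&Tag, which uses an antibody to bring a DNA-cutting transposase to marked chromatin, was run on 100000 cells per sample, with 1 H3K9me3 and 1 IgG library per genotype. Whether cells of several embryos were pooled is not stated in the labels.

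The authors' deposited lists give 3488 regions with more H3K9me3 in KO than in control and 1944 with less, so 64.2% (62.9 to 65.5) of all regions were higher. Brackets hold exact Clopper-Pearson 95% intervals, which cover counting error only. Region numbers run up to 6359 and 927 of them are in neither list, so most numbered regions were listed as higher or lower. What the unlisted numbers stand for is not stated. Read counts and values for single libraries are missing from the lists. The depth is therefore unknown, and no difference between genotypes could be tested or checked in a replicate. Each region has a peak score, the authors' own value on a scale that is not stated. Of 190 distinct scores in the higher list and 165 in the lower list, 17 occurred in both, and scores were compared only within a list. Arid1a had 0 regions, so the lists hold no check of the knockout, and they hold no expression values by which the labelled cell type could be checked.

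The sequences at the starts of Prg3 and Mpo are shown because both listed regions were assigned to promoters, with that of Epx, the eosinophil peroxidase gene near Mpo, for comparison. Each is a RefSeq promoter sequence that holds the 250 bases before the gene's start and the 50 bases from it on, on the GRCm38.p6 assembly, at chr2:84987965-84988264 (plus strand), chr11:87793534-87793833 (plus strand) and chr11:87875487-87875786 (minus strand). Capitals mark matches to 4 motifs on either strand. These are GATAA, the core bound by GATA factors, GAGGAA, a core bound by PU.1, TTGCNNAA, a form of the C/EBP site, and TATAA, the core of the box that places the start of transcription. Factors of the GATA, PU.1 and C/EBP families are known regulators of granulocyte genes.
Prg3: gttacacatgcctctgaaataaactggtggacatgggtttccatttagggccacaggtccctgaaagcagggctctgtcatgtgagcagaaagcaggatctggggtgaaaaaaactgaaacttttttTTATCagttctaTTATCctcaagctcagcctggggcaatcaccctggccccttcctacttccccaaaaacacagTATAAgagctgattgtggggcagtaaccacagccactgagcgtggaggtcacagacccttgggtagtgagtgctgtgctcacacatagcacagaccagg
Mpo: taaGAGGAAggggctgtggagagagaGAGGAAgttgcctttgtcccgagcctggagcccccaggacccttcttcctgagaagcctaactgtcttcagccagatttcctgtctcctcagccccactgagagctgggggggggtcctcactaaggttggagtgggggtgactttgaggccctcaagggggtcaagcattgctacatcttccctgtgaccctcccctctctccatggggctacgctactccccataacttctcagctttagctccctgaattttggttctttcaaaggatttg
Epx: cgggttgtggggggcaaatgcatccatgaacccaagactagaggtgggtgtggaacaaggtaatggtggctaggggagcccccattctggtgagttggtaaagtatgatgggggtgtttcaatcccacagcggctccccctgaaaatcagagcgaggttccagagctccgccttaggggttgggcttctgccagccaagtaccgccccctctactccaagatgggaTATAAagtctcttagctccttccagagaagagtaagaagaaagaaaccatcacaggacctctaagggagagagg

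The promoter sequences held different motifs. The Prg3 sequence held GATAA 2 times, both on the minus strand, 123 and 111 bases before the start, and TATAA 49 bases before it. The Mpo sequence held GAGGAA 2 times, 247 and 224 bases before the start, and no match to the other motifs. Epx had TATAA 24 bases before its start and no match to the others. No 2 of the matches overlapped. Each motif is common, with GATAA in 25.4%, GAGGAA in 28.3%, TTGCNNAA in 10.8% and TATAA in 24.9% of 32851 RefSeq promoter sequences of this length, so a match describes the sequence and does not show binding. CpG dinucleotides were few, at 1 in Prg3, 2 in Mpo and 5 in Epx against a median of 7, and the GC content was 49.7%, 55.3% and 53.7% against a median of 52.7%. No listed region overlapped any of these 3 sequences.

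The region at Prg3 was in the list of higher H3K9me3 in KO. It lay at chr2:84984585-84985347, was 763 bp wide and ended 2868 bp before the start of the transcript Prg3-201, at 84988215. The authors' annotation placed it in the promoter class of 2 to 3 kb. Its far end was 3630 bp from that start. The region therefore occupied the stretch between Prg2 and Prg3 and overlapped neither gene.

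The span of Prg2, on chromosome 2 from 84980461 to 84983632, had its near edge 953 bp from the region. The Prg3 span of RefSeq runs from 84988196 to 84996559, and the genes are 4564 bp apart, of which the region covered 16.7%. Measured from the gene spans, the region was closer to Prg2 (953 bp) than to Prg3 (2849 bp). Its assignment to Prg3 rests on the distance to transcription starts. In RefSeq all 763 bases of the region also fell inside Gm39868, a predicted long noncoding RNA gene from 84983713 to 84991979 that overlaps the start of Prg3. The authors' row does not name Gm39868.

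**Figure D1:**
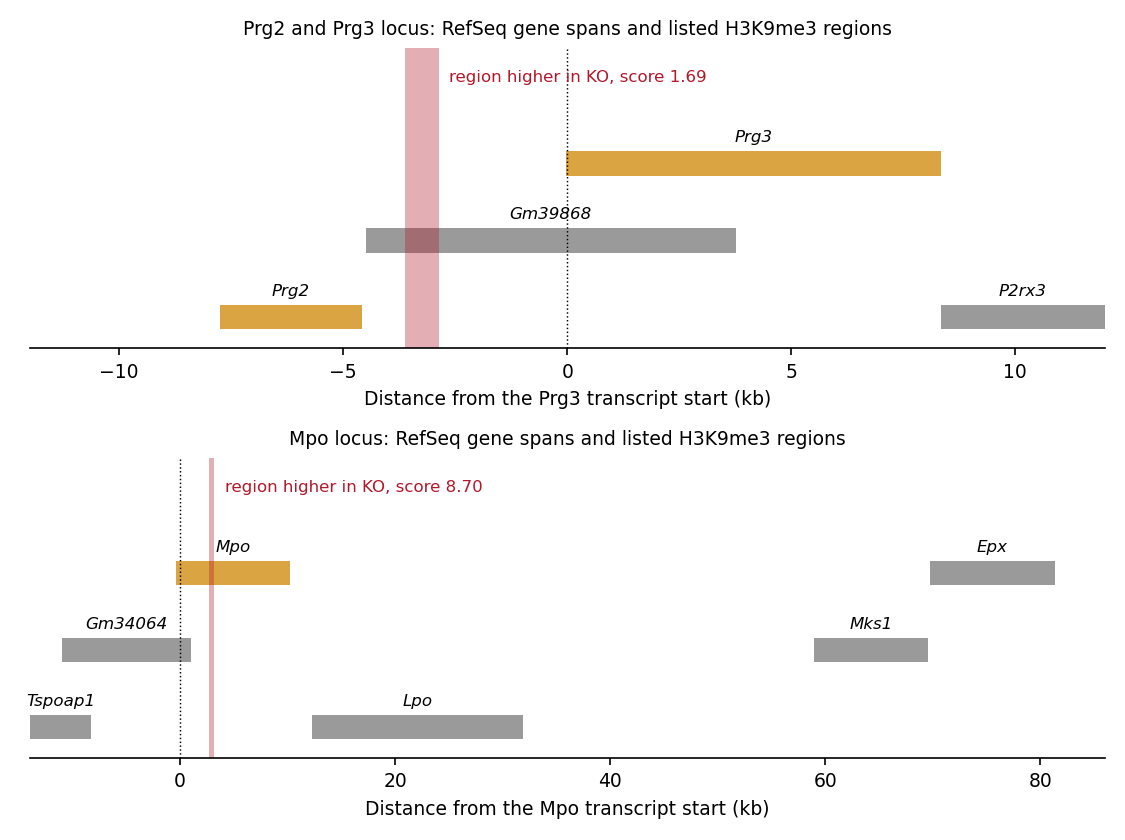
RefSeq gene spans (bars, members in gold) and listed H3K9me3 regions (red bands) against the distance in kb from the start of the transcript named in the authors' list (dotted line), for Prg2 and Prg3 (top) and Mpo (bottom); vertical position only separates the names. The 763 bp region of score 1.69 lies between Prg2 and Prg3, and the 540 bp region of score 8.70 lies inside Mpo, with none at Lpo or Epx.

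The Prg3 region was wide but low in score. Its score of 1.69 was below the median of the higher list, 2.52, and below the lower quartile, 1.95. It shared this exact score with 280 other regions, so that 281 regions (8.06% of the list) had it, 326 (9.35%) scored lower and 2881 higher. Its width went the other way. The median width of the list was 404 bp, and 57 of the 3488 regions (1.63%) were at least as wide as 763 bp. Among the 281 regions with the same score, whose widths ran from 271 to 990 bp with a median of 403 bp, 6 including the Prg3 region were at least as wide.

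The region at Mpo was also in the list of higher H3K9me3 in KO but had a high score. Its width was smaller than that of the Prg3 region, yet above the list's upper quartile of 506 bp. It lay at chr11:87796859-87797398, was 540 bp wide and began 2650 bp after the start of the transcript Mpo-203, at 87794209. The authors' annotation gave it the same promoter class of 2 to 3 kb, which counts both sides of a start. The whole region lay inside Mpo, which RefSeq places from 87793784 to 87804412, and covered the stretch from 28.9% to 34.0% of the way along the gene. Whether it lies in an exon or an intron is not given in the authors' row. Counted from the RefSeq start, 425 bp further upstream, the region began at 3075 bp and would leave the class of 2 to 3 kb.

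The Mpo score of 8.70 ranked 56 of 3488 in the higher list, and 98.4% of that list scored lower. The Prg3 region, of score 1.69, stood near the other end of the same list. No other region of the list had the exact score of the Mpo region. In width, 685 regions (19.6%) were at least as wide as 540 bp.

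Within their shared promoter class the members stood at different places. The class held 126 higher and 72 lower regions, a share higher of 63.6% (56.5 to 70.3), near the 64.2% of all regions. Of the 126, 69 lay upstream of a start, as at Prg3, and 57 downstream, as at Mpo. By score Mpo ranked 5 and Prg3 tied from rank 103, against a class median of 2.53. By width Prg3 ranked 1 and Mpo 22.

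**Figure D2:**
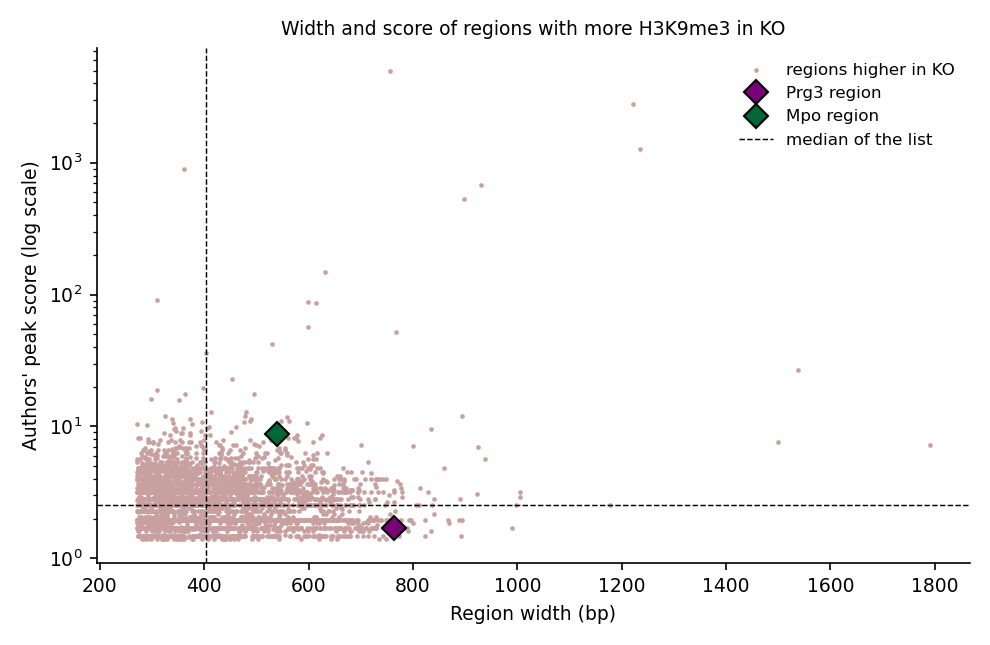
Authors' peak score (log scale) against region width in bp for the 3488 regions with more H3K9me3 in KO (points), with the Prg3 and Mpo regions as diamonds and dashed lines at the list's medians of 2.52 and 404 bp. Prg3 is far right and near the bottom at 763 bp and 1.69, and Mpo is above most regions at 540 bp and 8.70.

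The surroundings of the genes differed in how many regions they held. Around Prg2 and Prg3, the region before Prg3 was the only 1 within 500 kb, on chromosome 2 from 84480461 to 85496559. That span holds 43 RefSeq genes, 29 of them protein coding, and Gm39868 was the 1 gene that a region overlapped. Genes without a region included Slc43a3, 26.1 kb from the region, P2rx3, which encodes an ATP-gated ion channel of sensory neurons (11.2 kb), Ssrp1, which encodes a subunit of the histone chaperone FACT (51.8 kb), Aplnr, the apelin receptor gene (151 kb), and Serping1, the C1 inhibitor gene (209 kb). The next listed regions were 630 kb away on the low-coordinate side, at Calcrl, and 931 kb away on the other, at the olfactory receptor pseudogene Olfr1025-ps1. Both were also in the higher list, with a score of 1.95 each.

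The distance of 630 kb to the nearest other region set the Prg3 region among the more isolated ones. Over all 5432 regions the median of this distance was 151 kb (quartiles 64.0 and 318), and 6.66% of regions were more isolated. A low number of regions around a gene was common, however. Of 21887 protein-coding genes in RefSeq, 38.0% had at most 1 region within 500 kb, and 15.3% had none. The median was 2 regions. The windows of neighbouring genes overlap, so these genes are not independent.

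Around Mpo, on chromosome 11 from 87293784 to 88304412, there were 7 regions, of which 5 were higher and 2 lower in KO, a share higher of 71.4% (29.0 to 96.3). The share over all regions, 64.2%, lay inside this interval. The Mpo region itself was counted among the 5 higher regions, so the share near Mpo was not independent of the choice of Mpo. At least 7 regions within 500 kb were found at 1.24% of protein-coding genes. That background covers all such genes, whether or not a region lies at them, whereas the count at Mpo includes its own region. The 43 RefSeq genes of this span included 22 protein-coding genes, and 4 of these, Ppm1e, Mpo, Cuedc1 and Mrps23, were overlapped by a region. The distance from the Mpo region to its nearest neighbour, 131 kb, was close to the median of 151 kb.

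The regions beyond Mpo lay mostly on the side towards Epx. A region of score 5.41 at chr11:87928093-87928453 was intergenic, 3.53 kb before the predicted gene Gm11504 and 52.6 kb from Epx. A region of score 4.54 at chr11:88021092-88021483 lay in an intron of the predicted gene Gm11508, with the start of 2010015M23Rik nearest. Then came 3 regions whose nearest start was that of Mrps23, the gene of a mitochondrial ribosomal protein. The first, of score 3.39, lay in intron 1 of Cuedc1 at chr11:88161595-88162226 and was higher. The next, at chr11:88198997-88199449, was 1 of the 2 lower regions (score 2.22). It was classed as intergenic, although it fell inside the RefSeq span of Mrps23. The last, of score 4.59 at chr11:88221280-88221817, was higher. On the other side of Mpo there was 1 region, lower in KO, of score 2.66 at chr11:87309365-87309680. It lay 487 kb from the Mpo region in intron 1 of Ppm1e, a protein phosphatase gene, with the predicted gene Gm11490 as its nearest start. The Mpo score was the highest of the 5 higher regions, which ran from 3.39 to 8.70.

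**Figure D3:**
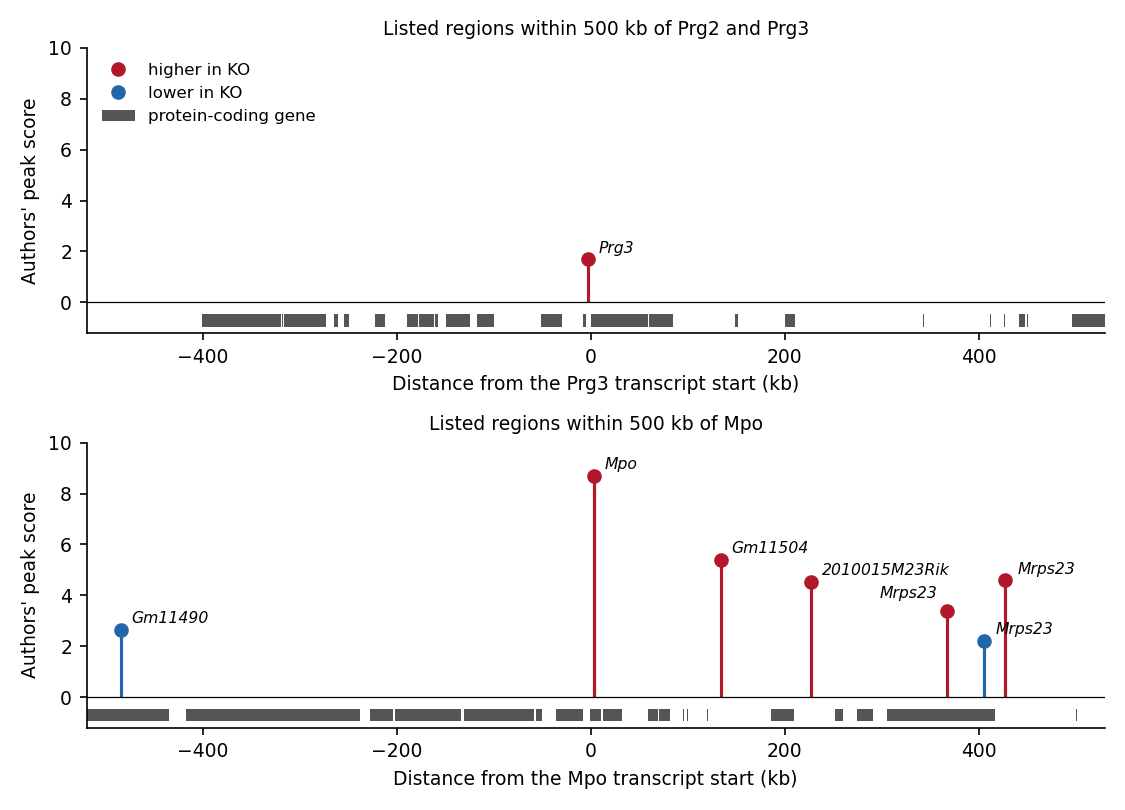
Authors' peak score of each listed region within 500 kb of Prg2 and Prg3 (top) and of Mpo (bottom) against the distance in kb from the member's transcript start, in red where higher and in blue where lower in KO; scores of different colours may not share a scale, and grey bars are protein-coding genes. A single region of score 1.69 stands at Prg3, while 7 stand around Mpo, 6 of them at or beyond Mpo on the right.

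Mpo lies in a cluster of peroxidase genes, and of these only Mpo had a region. Lpo, the gene of lactoperoxidase, has its near edge 2016 bp beyond the end of Mpo and was 9.03 kb from the Mpo region. The near edge of Epx, which lies on the minus strand, is 59.6 kb beyond the end of Mpo and was 66.6 kb from the region. Neither had a region in either list. Mir142, the gene of a microRNA of blood cells, was 39.9 kb from the Mpo region and had none either.

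Other genes of granulocytes and related cells, and haem peroxidase genes, were counted in 7 lists with 65 genes in all. Of these, 64 were in the RefSeq table. By nearest start, 5 genes (7.69%) had higher and 1 (1.54%) had lower regions. The background over all protein-coding genes was 5.10% with a higher and 3.23% with a lower region. Without Prg3, Prg2 and Mpo, 3 of 62 genes (4.84%) were higher, close to the background of 5.10%. The lower share, 1.61%, was below its background of 3.23% but rests on 1 gene. Both counts of higher genes include Pxdn, which was listed as a haem peroxidase gene, so they are not for granulocyte genes alone. Genes were matched by symbol.

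Among 9 eosinophil granule genes, 8 of them in the RefSeq table, Prg3 and Ear10 had a higher region. Ear10 encodes an eosinophil-associated ribonuclease. Its region of score 2.82 at chr14:43922143-43922437 began 931 bp inside the start. The RefSeq promoter sequence of Ear10, not shown here, held GATAA and TTGCNNAA 1 time each and no match to the other motifs. RefSeq holds 15 Ear genes and pseudogenes, all on chromosome 14, of which 10 are pseudogenes. They are near copies, so the gene to which reads belong is uncertain. A second higher region, of score 4.54 at chr14:44103766-44104112, lay within 10 kb of a member of this family, with the predicted gene Gm49101 as its nearest start. Among 6 primary granule genes of neutrophils only Mpo had a region. The other 5, including the serine protease genes Elane, Prtn3 and Ctsg, had none.

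The list headed later neutrophil granules held 14 genes, such as Ltf, Lcn2 and Camp, with S100a8 counted alongside them. Of the 14, only Mmp9 had a region. Mmp9 encodes gelatinase B, a matrix protease. Its region was in the lower list, the single lower region of all 7 lists. It was 672 bp wide with a score of 2.66 at chr2:164948129-164948800, and it covered the transcription start, from 90 bp before to 581 bp after it. The score equalled the median of the lower list, 2.66.

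Of 4 haem peroxidase genes counted, Mpo and Pxdn had a higher region, and Lpo and Epx had none. Pxdn, which encodes peroxidasin of the extracellular matrix, held a region of score 3.76 in intron 3, on chromosome 12 from 29977419 to 29977761. Of 11 granulocyte receptor genes, Cxcr4 had 2 higher regions on chromosome 1. Cxcr4 encodes the chemokine receptor that retains granulocytes in bone marrow. Its regions scored 3.57 at 2.22 kb before the start, in the same promoter class as those at Prg3 and Mpo, and 4.40 at 30.3 kb before it. None of 13 granulocyte transcription factor genes, such as Cebpe, Gfi1 and Gata1, and none of 10 mast cell and basophil granule genes, such as Cpa3, had a region.

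**Figure D4:**
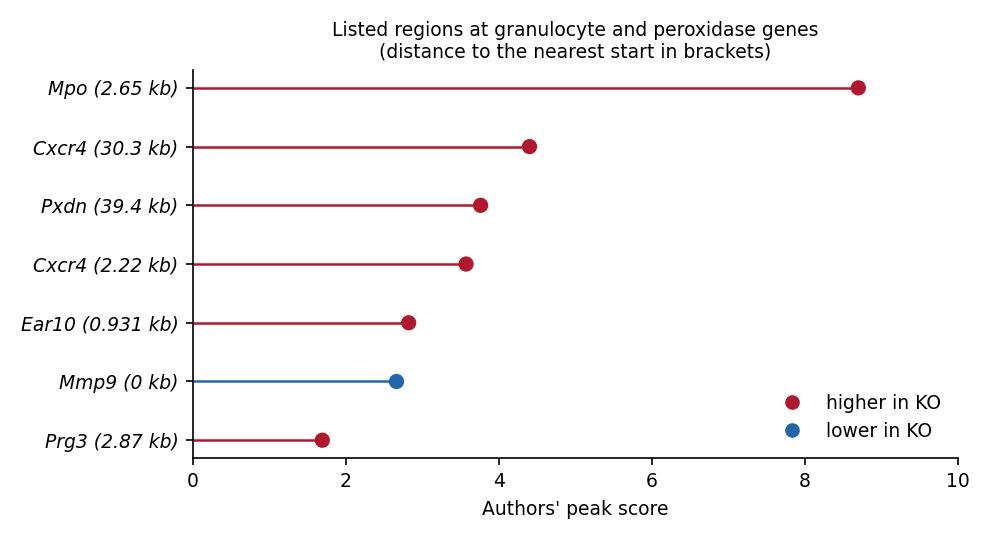
Authors' peak score of the 7 listed regions whose nearest start belongs to a gene of the 7 lists, with the distance to that start in brackets, in red where higher and in blue where lower in KO; scores of different colours may not share a scale. Among the 6 higher regions Mpo has the highest score at 8.70 and Prg3 the lowest at 1.69.

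A gene without a listed region, such as Prg2, Lpo or Epx, was not listed as different, which leaves unknown whether H3K9me3 was alike in both genotypes or too low to be called. Positions are given as deposited and were taken to be on GRCm38. The transcripts given for all 7 regions at genes of the lists overlapped the GRCm38 gene of the same name. The start given for Prg3-201 equals that of the RefSeq promoter sequence. Both checks concern the transcript positions only, so they cannot show on which build the regions themselves were placed. The submitters' processing notes name the build mm9, and if the regions had been placed on mm9 their distances to genes would not hold.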

How the data were processed

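The 4 CUT&Tag libraries of sorted microglia were amplified for 14 cycles, per the labels' protocols. Tools in the submitters' processing notes are CASAVA 1.4, Bowtie2 2 and FastQC, and the build is mm9, with no role or order stated. Not given in the sources used here are the peak caller, the rule for listing a region, the annotation tool and whether IgG was used. The deposited lists, per the file headers, hold a position, width, peak score, annotation, nearest gene and distance per region. The authors' score has no stated scale. Region numbers follow the genome, and the windows around the members skip none of the 927 numbers, of 6359, that are in neither list.

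Regions of the members, windows of 500 kb and gene lists were counted. With 1 H3K9me3 library per genotype no test was made. Members and lists were chosen with earlier results of these data known. Named genes were the members, genes with the nearest start to or holding a region in a window, list genes with a region, and annotated neighbours. An item that the lists first held is not reported here. Listed genes without a region were given as examples after the results were seen. RefSeq promoters existed for 2 members, Prg3 and Mpo. Python 3.11.15, pandas 2.3.3, scipy 1.17.1 and matplotlib 3.10.9 were used, and window counting and motif search were tested on simulated data. Alternatives were windows of 250 kb and 1 Mb, a score at least 1 above the list's smallest, merging within 10 kb, whole regions inside the window, starts within 10 kb, the holding gene and RefSeq overlap, the last added after seeing the data.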

Additional observations from a re-analysis of the deposited data

How the results depend on the processing

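The number of regions at the 3 genes, 2 by nearest start, was 0 by the holding gene alone, because the promoter class names no holding gene. It was 1 with a score at least 1 above the list's smallest, which left out Prg3, and 1 by overlap with the RefSeq span, which also left out Prg3 and was chosen after seeing the data. The share of higher regions near Mpo, 71.4%, was 100% within 250 kb (3 of 3) and stayed between 71.4% and 83.3% under the other alternatives. Each of these counts includes the Mpo region. Around Prg2 and Prg3 the share was 100% under each alternative that left a region, and the score alternative left none. Within 1 Mb it was 4 of 4, the Prg3 region included. Under the others it was 1 of 1, the Prg3 region itself, so the unchanged share says nothing about the surroundings. The number of list genes with a region, 6 by nearest start, was 1 by the holding gene (Pxdn) and 5 or 6 otherwise. No paired analysis was possible because each group had 1 library and the lists give no values per library. Depth is unknown, so its effect on which regions were listed could not be measured.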
